A study of Mus musculus with 2 samples.

Results

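The developmental homeobox genes outside the Hox clusters were examined for peaks of H1t, a testis-specific linker histone, in mouse spermatogenic cells. The members were the protein-coding genes of chromosomes 1 to 19 in GENCODE M21 whose symbol is Lhx, Pax, Dlx, Irx, Pitx, Otx, Emx, Msx, Gbx, Meis or Nkx followed by digits, with the Six-family genes. There were 64 of them among 20807 protein-coding genes of these chromosomes, and they fell into 12 families on 14 chromosomes. The rule used gene names only, and it was set with earlier results of these data known. The material was chromatin of spermatogenic cells from testes of ICR mice aged 6 weeks, immunoprecipitated with an in-house rabbit polyclonal antibody against H1t, and the series also holds an input of such cells, made without antibody, which was not analysed here. The labels call the cells germ cells, with no stage and no number of mice. The data are the authors' list of 76546 peaks, from 1 library without a replicate, so all values below describe this library and no test was made between genes. A peak list cannot show whether the cells carry germ cell markers, so the labelled cell type was not checked.

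Homeobox genes encode transcription factors that bind DNA through the homeodomain, a fold of about 60 residues whose recognition helix lies in the major groove. The families described here set up body regions and organs in the embryo, from the forebrain (Otx, Emx, Six3, Lhx2) to the heart (Nkx2-5), kidney (Pax2, Lhx1, Six2), pancreas (Nkx6-1, Pax4) and limbs (Pitx1, Meis). Most of them are silent in cells that do not use them, where they typically lie in wide stretches of unmethylated, CpG-rich DNA held by Polycomb complexes. Linker histones bind the nucleosome where DNA enters and leaves it, and H1t is the variant made in spermatocytes and early spermatids.

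H1t peaks were frequent at these genes. A peak lay over the gene body or within 10 kb of 61 of the 64 members (95.3%), against 70.4% of all coding autosomal genes. Counted over the gene and its flanks, the members had a median of 8.34 peaks per 100 kb, with quartiles of 4.27 and 12.8, against 2.66 for all coding autosomal genes, with quartiles of 0 and 5.03. Of the members, 45 (70.3%) lay above the upper quartile of all genes, where 25% of all genes lie by construction. A peak midpoint lay within 1 kb of the annotated start of 34 members (53.1%, against 24.2% of all genes). Peaks overlapped an exon of a coding transcript in 52 members (81.3%, against 37.8%). Peaks at the start and in exons came together in 33 members, 19 had an exon peak without a start peak, 1 a start peak without an exon peak, and 8 had peaks only elsewhere within 10 kb. Irx6, Nkx2-4 and Nkx2-6 had none. The same measures were 35.9% at the start and 8.51 peaks per 100 kb for the 39 Hox genes, and 47.5% and 6.60 for the 59 Fox and Sox genes. For 60 other homeobox genes outside the Hox clusters (Alx, Lmx, Pou and others) they were 58.3% and 7.12. The densities of these transcription factor families thus lay near each other and all above the median of coding genes. The 3 groups were also short, with median lengths of 3488, 5064 and 6469.5 bp, against 17629 bp for all genes, and were not matched for length. A peak near several neighbouring genes counts for each of them in these densities. Exon peaks were found in 56.4% of the Hox, 78.0% of the Fox and Sox and 71.7% of the other homeobox genes. The median share of exon sequence inside peaks was 16%, 18.5% and 22.2% in these groups, 20.3% in members and 0% in all genes. Frequent exon peaks were thus not particular to the members.

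**Figure D1:**
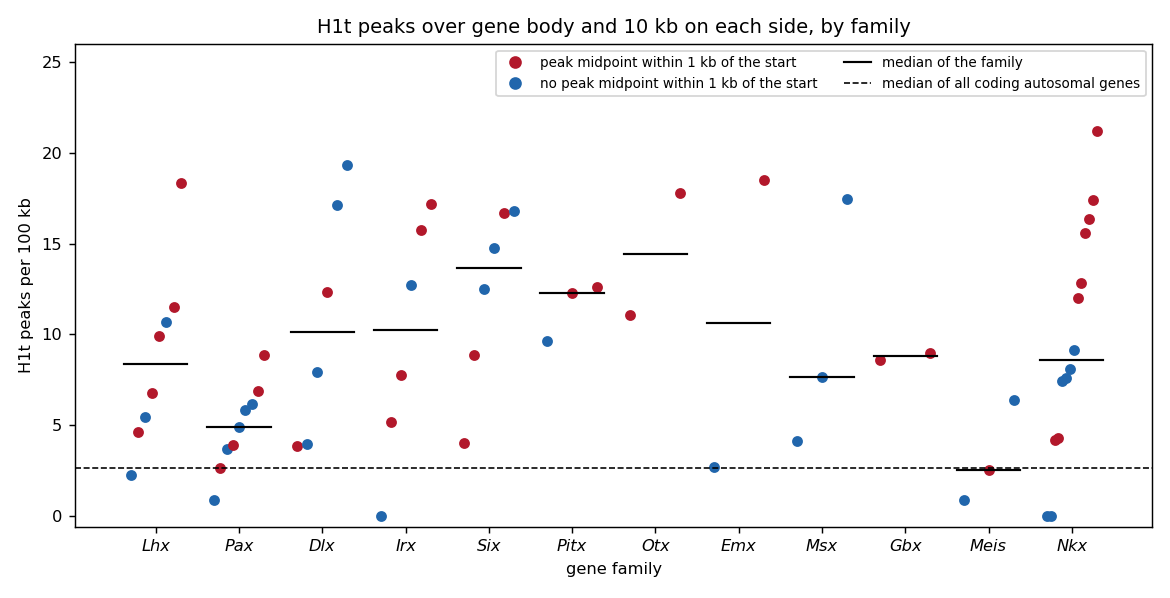
H1t peaks per 100 kb over gene bodies with flanks of 10 kb for each of the 64 members, by family and rising density from left to right within a family, with a black bar at the median of the family. Red marks members with a peak midpoint within 1 kb of the start, blue the others, and the dashed line is the median of all coding autosomal genes (2.66); 57 members lie above that line.

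There were 196 distinct peaks in these regions. The authors' score, which runs from 50 to 3100 in the whole list with a median of 74.04, had a median of 67.16 for these peaks, against 70.09 for the 33320 peaks within 10 kb of any coding autosomal gene. Their width had a median of 641 bp, against 665 bp. Of the 196 peaks, 81 (41.3%) were above the median score of the list, against 45.0% near any coding gene. A score of 200 was reached by 5, which belonged to Nkx2-1, Irx3, Nkx3-2 and Six3. The share of such scores near all coding genes is not given here, so this count is not read as high or low. The members' peaks were thus denser than those of most genes, with scores around the usual level. Close neighbours shared few peaks: 3 lay within 10 kb of both Dlx1 and Dlx2, and 2 within 10 kb of both Dlx5 and Dlx6. When overlapping regions were merged, 60 loci remained and the median was again 8.34 peaks per 100 kb.

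The sequences at the strongest and the empty starts are shown first, to set letters beside the values that follow. Each runs from 250 bases before to 50 bases after a RefSeq start (assembly GRCm38.p6), on the strand of the gene, with every CG dinucleotide in capitals. Gbx2 (chr1:89931127-89931426, minus strand), Nkx6-2 (chr7:139582748-139583047, minus) and Six4 (chr12:73113376-73113675, minus) had the highest start scores, and Nkx2-4 (chr2:147085296-147085595, minus) had no peak within 10 kb.
Gbx2: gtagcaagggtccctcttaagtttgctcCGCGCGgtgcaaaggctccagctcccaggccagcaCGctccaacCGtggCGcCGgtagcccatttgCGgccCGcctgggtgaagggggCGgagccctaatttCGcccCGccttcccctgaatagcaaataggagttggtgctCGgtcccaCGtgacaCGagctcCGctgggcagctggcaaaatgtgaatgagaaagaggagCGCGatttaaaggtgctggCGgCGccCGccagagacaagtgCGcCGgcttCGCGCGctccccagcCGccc
Nkx6-2: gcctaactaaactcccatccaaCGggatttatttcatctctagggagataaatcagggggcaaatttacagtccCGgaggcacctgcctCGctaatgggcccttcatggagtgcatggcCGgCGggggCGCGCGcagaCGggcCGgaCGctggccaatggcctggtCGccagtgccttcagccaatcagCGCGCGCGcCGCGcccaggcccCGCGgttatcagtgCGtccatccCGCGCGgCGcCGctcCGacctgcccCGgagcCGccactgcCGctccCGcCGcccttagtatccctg
Six4: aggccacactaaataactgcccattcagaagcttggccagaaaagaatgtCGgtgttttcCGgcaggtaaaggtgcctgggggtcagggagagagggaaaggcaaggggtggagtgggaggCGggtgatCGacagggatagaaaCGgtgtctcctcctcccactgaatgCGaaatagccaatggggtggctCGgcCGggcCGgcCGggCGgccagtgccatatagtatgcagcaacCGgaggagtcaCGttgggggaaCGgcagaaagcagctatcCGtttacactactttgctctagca
Nkx2-4: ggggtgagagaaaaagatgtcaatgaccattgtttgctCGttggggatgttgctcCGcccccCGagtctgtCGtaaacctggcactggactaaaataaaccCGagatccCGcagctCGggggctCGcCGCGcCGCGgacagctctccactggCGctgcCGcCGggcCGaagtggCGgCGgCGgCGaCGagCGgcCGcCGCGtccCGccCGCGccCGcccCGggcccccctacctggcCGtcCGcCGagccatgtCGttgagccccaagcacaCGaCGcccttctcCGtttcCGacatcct
The peaks covered 300 of the 300 bases at Gbx2, 208 at Nkx6-2, 0 at Six4, whose peak lay just downstream, and 0 at Nkx2-4. The number of CG dinucleotides was 27 at Gbx2, 32 at Nkx6-2, 15 at Six4 and 38 at Nkx2-4, so the window at the gene with no peak within 10 kb held the most. A RefSeq start within 100 bp of the GENCODE start was found for 25 members and 11371 coding autosomal genes. These members had a median of 20 CG dinucleotides, against 16 for all matched genes, where 96.7% of windows held at least 1 (the motif is CG, which reads the same on both strands). Within the members the median was 20 for the 15 with a start peak and 19.5 for the others. The number of CG dinucleotides in this window thus had nearly the same median in members with and without a start peak.

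Start peaks occurred in 11 of the 12 families. The best scores at the start ran from 50.21 to 173.48 with a median of 75.64, against a median of 70.525 over all coding autosomal genes with a start peak. Gbx2, which positions the border of midbrain and hindbrain, had 173.48, in a peak 1716 bp wide centred 78 bp downstream of the start. Nkx6-2, a factor of oligodendrocytes and the spinal cord, had 156.4. Six4, a muscle and sensory organ gene, had 150.84 and Six6 of the same cluster, of the eye and pituitary, 116.13. Six2, which maintains nephron progenitors, had a pair of start peaks with scores of 147.2 and 95.37. Pax7, of muscle stem cells, had 145.84 and Nkx3-2, of the axial skeleton, 119.49. Lhx5 (105.22), Dlx5 (104.6) and Irx2 (96.91) completed the highest 10. At the low end, Otx2 (50.21) and Pax5 (52.55) lay near the lowest score of the list. In families, a start peak was found in 8 of 14 Nkx, 5 of 8 Lhx, 4 of 9 Pax, 4 of 6 Irx and 2 of 6 Dlx genes, in 3 of 6 Six-family genes, in 2 of 3 Pitx, 1 of 3 Meis and 1 of 2 Emx genes, in both Otx and both Gbx genes, and in 0 of 3 Msx genes.

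The LIM homeobox genes (Lhx) encode factors with a pair of zinc-binding LIM domains and act in neurons, pituitary, kidney and gonad. All 8 had a peak within 10 kb, with a median of 8.34 peaks per 100 kb. Lhx1, needed for the head organiser and kidney and used by spermatogonial stem cells, was the densest at 18.3. Its start carried peaks centred at -22 and -654 bp, with scores of 78.75 and 65.44, both within 1 kb of the start of the non-coding gene Lhx1os. Lhx6, of cortical interneurons, had peaks on 7 of its 10 coding exons. Lhx2, of forebrain and hair follicle, had 55.8% of its exon sequence inside peaks, with the highest score (130.35) at 12058 bp from the annotated start. Lhx8, of oocytes and cholinergic neurons, was the sparsest, with 1 peak (123.22) at 2301 bp. Lhx4 had 4 peaks, none on an exon.

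The Pax genes encode paired-domain factors, and as a family they were sparser, at a median of 4.87 peaks per 100 kb. Several are long, and the longest, Pax5 of B cells, had 8 peaks over 205731 bp with flanks (3.89 per 100 kb). Pax2, of kidney and midbrain, was the densest at 8.84, with 9 peaks, of which 5 lay from -217 to 5559 bp around the start. Pax3, of neural crest and muscle, had 1 peak in an intron (0.863 per 100 kb), and its close relative Pax7 had 8 (6.87). Pax6, the eye gene, had 3 peaks with scores from 61.89 to 80.45, none within 1 kb of its annotated start. Pax1 and Pax9, of vertebral and thymus development, each had peaks on 2 coding exons and none at the start.

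The Nkx genes spanned nearly the whole range. Nkx2-3, of spleen and gut, was the densest member of all at 21.2 peaks per 100 kb, with 5 peaks whose scores ran from 58.43 to 111.41. Nkx3-2 had 17.4, and 89.6% of its exon sequence lay inside peaks, the largest share among the members. Its strongest peak (274.63) lay at -8649 bp, upstream of the gene. Nkx2-2, of ventral neural tube and islets, had 16.3 and Nkx6-3, of the stomach, 15.6. Nkx2-1, of thyroid and lung, held the strongest peak near any member, with a score of 301.91 and a width of 2231 bp, at chr12:56532858-56535088. Nkx6-1 and Nkx2-5, of pancreas and heart, had 2 peaks each, and Nkx6-1 had none on an exon. Nkx2-4 and Nkx2-6 had 0 peaks. Paralogues thus ranged from 0 to 21.2 peaks per 100 kb within the Nkx2 group.

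Among the Six-family genes, whose products act with Eya proteins in eye, ear, muscle and kidney, the median was 13.6 peaks per 100 kb. Six3, of forebrain and eye, had 6 peaks with scores of 202.76, 132.91, 201.28, 72.01, 110.29 and 50.19 in order along the gene, from -4953 to 15354 bp. None of these lay within 1 kb of its annotated start, and the one at 4616 bp lay within 1 kb of the start of the antisense gene Six3os1. Six2 had 4 peaks, at 16.7 per 100 kb. Six5 had 3, all upstream (scores of 53.41 to 59.5), and Six6 had 1. The Irx genes, which pattern heart, limb and neural tube, lie in groups on chromosomes 13 and 8. Irx4 and Irx2 on chromosome 13 had 17.2 and 15.8 peaks per 100 kb and Irx1 there had 7.75. On chromosome 8, Irx3 had 12.7, Irx5 had 5.17 and Irx6 had 0. The strongest Irx peak, of 298.26 and 1883 bp, lay on the coding exons of Irx3 at chr8:91799384-91801266.

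The paired-like families Otx and Pitx had medians of 14.4 and 12.3 peaks per 100 kb. Otx1 and Otx2, of forebrain and midbrain, had 17.8 and 11.1 peaks per 100 kb. Pitx3, of midbrain dopamine neurons, had 12.3 and Pitx1, of hindlimb and pituitary, 9.63. Peaks covered 73.8% of the exon sequence of Pitx3 and 69.1% of Pitx1. The Dlx genes, of jaw and forebrain interneurons, ranged from 19.3 at Dlx1 and 17.1 at Dlx2 to 3.97 at Dlx3 and 3.87 at Dlx4, and the peaks between Dlx1 and Dlx2 were weak (50.9 to 52.53). Emx2, of cortex and urogenital tract, had 18.5, against 2.70 for Emx1. Msx3, of dorsal neural tube, had 17.4, against 7.64 for Msx2 and 4.15 for Msx1, and 1 of its 4 peaks lay within 1 kb of the starts of Tubgcp2 and Zfp511. The Meis genes, whose products are partners of Hox proteins, were the sparsest family, with 6.37 at Meis3, 2.51 at Meis1 and 0.898 at Meis2. Meis1 and Meis2 are long genes, of 139169 and 202776 bp.

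Peaks were not confined to the gene's annotated 5′ end, which is the start meant here. With any annotated transcript start counted, 44 members had a start peak (68.8%, against 31.6% of all genes). Some peaks inside the members thus lay at other annotated starts. How many of those 1 to 4 kb downstream did so was not counted. Around the start the members had 34.4 to 37.5 peak midpoints per 100 starts per kb from -500 to 1000 bp, against a single maximum of 30.1 in the first 500 bp for all coding autosomal genes. Coding genes with the most GC-rich first exons had a higher and narrower maximum, 58.2 per 100 starts per kb in the first 500 bp. Between 1 and 4 kb downstream the members kept 15.6 to 21.9 per 100 starts per kb, while all genes had 2.60 to 4.86. A midpoint in this stretch was found for 30 members (46.9%), against 8.59% of all genes. This window was chosen after the profile was seen. Higher values were not confined to it: from 4 to 10 kb downstream the members' bins held 0 to 18.8, against 2.67 to 3.36 for all genes. The members were also shorter, with a median of 7136 bp against 17629 bp, and the profile was not matched for length. The start base itself lay inside a peak in 22 members (34.4%), against 15.8%. Of the 39 start peaks of members, 24 were centred downstream.

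**Figure D2:**
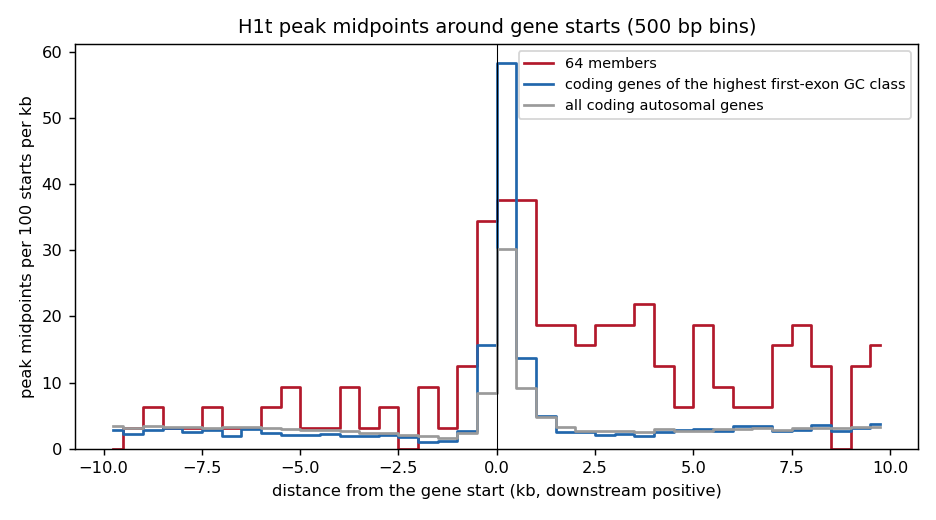
Peak midpoints per 100 starts per kb in bins of 500 bp from 10 kb upstream to 10 kb downstream of the gene start, for the 64 members (red), coding genes of the highest first-exon GC class (blue) and all coding autosomal genes (grey). From 1 to 4 kb downstream the members' line stands at 15.6 to 21.9, above both others, and the highest first-exon GC class has the tallest bin just downstream (58.2).

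Coding sequence was the part of the members most covered by peaks. Peaks covered 34.6% of the members' coding bases, against 8.05% for all coding autosomal genes, a ratio of 4.30. The 5′ UTRs had 30.0% against 16.3% and the 3′ UTRs 5.52% against 1.73%. Introns had 3.30% against 1.79%, the 10 kb upstream 4.44% against 2.47% and the 10 kb downstream 4.12% against 2.67%. By midpoint, 45 of the 196 peaks lay in coding sequence, 15 in 5′ UTRs, 5 in 3′ UTRs, 7 in other exons, 47 in introns, 41 upstream and 36 downstream. At least 50% of the exon sequence lay inside peaks in 10 members (15.6%), against 1.79% of all genes. Besides Nkx3-2 they included Nkx6-2 (74.0%), Six2 (70.7%), Dlx5 (63.7%), Irx3 (54.6%) and Nkx2-3 (53.1%). First coding exons carried a peak in 35 of 64 cases (54.7%, against 17.9%), inner ones in 26 of 162 (against 4.33%) and last ones in 20 of 64 (31.3%, against 7.75%).

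**Figure D3:**
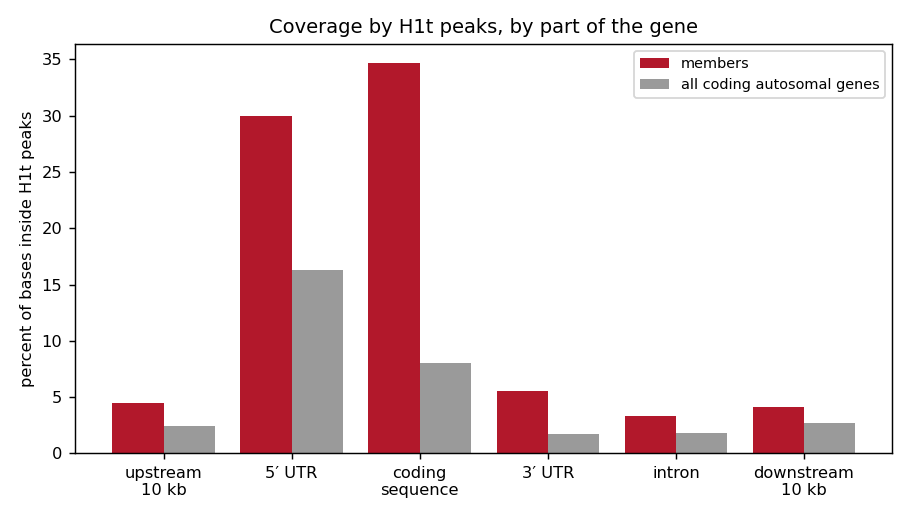
Percent of bases inside H1t peaks for each part of the gene, for the members (red) and all coding autosomal genes (grey). The members' bar is the taller in each part, and the widest gap is in coding sequence (34.6% against 8.05%).

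The members were richer in GC than other genes, and this was set beside the counts. Their first exons had a median GC content of 65.3%, against 60% for all coding autosomal genes, and their coding sequences 62.1%, against 52.2%. Coding genes were divided into 5 classes of similar size by first-exon GC content. In the highest class (70.1% or more), 13 of 18 members had a start peak (72.2%, against 43.4% of all genes in the class). In the next 11 of 21 had one (52.4%, against 37.6%) and in the third 7 of 16 (43.8%, against 25%). The second class had 0 of 5 (against 10.6%) and the lowest 3 of 4 (against 4.4%), namely Six4, Meis1 and Pax5. If members had carried start peaks at the rates of their classes, 20.4 would have had one (31.9%), where 34 did. With classes of GC content and gene length together the number was 19.4. For exon peaks the class rates gave 29.8 members, where 52 had one. Median density lay above that of all genes in each of the 5 classes, for example 9.77 against 2.77 peaks per 100 kb in the highest. Density was also lower in longer genes, and the members were short. In 5 classes of gene length the members' median was again the higher in each. It was 10.6 against 4.20 peaks per 100 kb in the shortest class and 3.20 against 1.93 in the longest.

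Single coding exons were compared in the same way. In classes of similar total length, 154 of the members' 290 coding exons (53.1%) fell in the highest class (58.8% GC or more), which holds 17.4% of all coding exons. Of these 69 overlapped a peak (44.8%, against 22.8% of all exons in the class). In the next class 7 of 72 did (9.72%, against 7.14%) and in the third 5 of 33 (15.2%, against 2.26%). In the lowest class 0 of 11 did (against 0.498%) and in the second 0 of 20 (against 0.752%). In all, 81 exons overlapped a peak (27.9%, against 6.1% of all coding exons), where the class rates gave 41.2 (14.2%). A longer exon overlaps a peak more easily, and exon length was not matched. Counted by bases the gap was smaller as a ratio, though about as large in percentage points. Peaks covered 35.4% of the bases of these exons, where the class rates gave 21.8%. In the class next to the highest, 9.68% of bases were covered, against 8.37% for all coding exons. The GC content of the peaks and introns, and of flanks beyond the promoter windows, was not computed, and the part that GC content plays in these counts was not tested further.

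**Figure D4:**
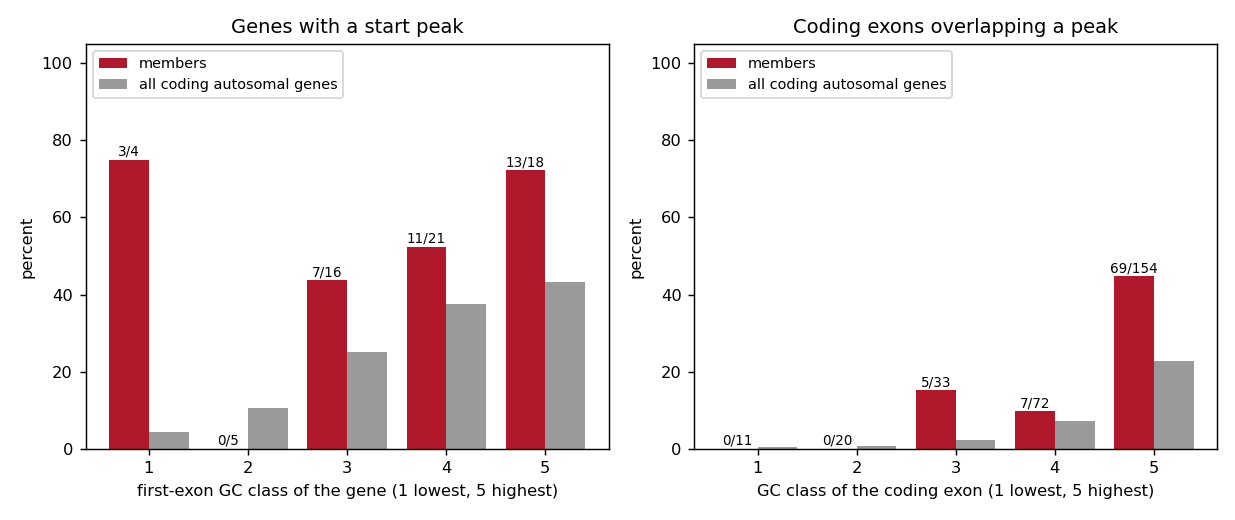
Percent of genes with a start peak by class of first-exon GC content (left) and percent of coding exons overlapping a peak by class of exon GC content (right), for members (red, with counts) and all coding autosomal genes (grey). In the highest class the members stand at 72.2% against 43.4% for starts and at 44.8% against 22.8% for exons.

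The homeobox itself was located in 59 members by the conserved residues of the recognition helix in the translated coding sequence, and its 60 residues (63 in Irx and Meis, whose homeodomains carry a longer loop) were mapped back to the genome. Pax1, Pax2, Pax5, Pax8 and Pax9, which lack a whole homeodomain, had no match. A peak overlapped the homeobox of 26 of the 59 members (44.1%) and covered it wholly in 13. No coding stretch of like length was counted in other genes, so these and the family counts below are not read as high or low. Peaks covered 32.9% of homeobox bases, against 36.5% of the other coding bases of the same genes, so coverage of the homeobox was close to that of its surroundings. Only 3 members had 1 peak that counted both at the start and on the homeobox. The homeobox carried a peak in Pitx1, Pitx3 and both Emx genes, 4 of 6 Six-family genes, 7 of 14 Nkx, 3 of 6 Dlx, 2 of 3 Msx, 1 of 2 Otx, 2 of 8 Lhx and 2 of 6 Irx genes. It carried 0 in the 4 Pax genes with a match, the 3 Meis and the 2 Gbx genes. High scores on a homeobox included those of Nkx2-1 (301.91), Irx3 (298.26), Nkx6-2 (156.4), Six4 (150.84) and Irx1 (140.53).

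Homeoboxes with a peak had a median GC content of 60.8%, and those without 57.8%. Divided into 3 groups of similar size, 2 of the 18 homeoboxes of lowest GC content (43.3% to 56.7%) overlapped a peak, 12 of 20 in the middle (57.2% to 61.1%) and 12 of 21 in the highest (61.7% to 67.2%). The low pair were Dlx5 (48.9%) and Emx2 (49.4%). Among GC-rich homeoboxes without a peak were those of Six5 (66.7%), Pax7 (65.6%) and Nkx2-5 (64.4%).

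Genes of the partners of these factors were also counted, from a list of 21. It held the Eya genes and Dach1, which act with Six-family proteins, the LIM cofactors Ldb1 and Ldb2 and the LIM-only genes (Lmo). It also held the Pbx genes, whose products pair with Meis and Hox proteins, the Pknox genes and the Tle corepressors. All 21 had a peak within 10 kb (against 70.4% of all coding autosomal genes), 9 had a start peak (42.9%, against 24.2%) and 15 an exon peak (71.4%, against 37.8%). Their median density was 1.93 peaks per 100 kb, below the 2.66 of all genes. Their median length was 85779 bp, against 7136 bp for the members and 17629 bp for all genes. Long genes have such peaks more often. Of all coding autosomal genes of 58411 bp or more, 90.1% had a peak within 10 kb, 35.7% a start peak and 51.7% an exon peak. The partner genes were not matched for length, so their shares are not read as high. Pbx2 (15.3), Ldb1 (8.92) and Pbx4 (6.69) were the densest. Tle1, a corepressor recruited by several homeodomain proteins, had the highest start score of the list (145.11).

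Some of these peaks also lay at starts of non-coding genes. Of the 196 peaks, 22 had their midpoint within 1 kb of such a start (11.2%, against 2.76% of the 33320 peaks within 10 kb of any coding autosomal gene). The genes included Lhx1os, Dlx4os, Irx3os, Six3os1, Emx2os and Nkx2-2os. At Gbx2 the start peak lay within 1 kb of the start of D130058E05Rik and at Irx2 of Gm20554. Where starts lie this close, the peak cannot be assigned to either gene.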

How the data were processed

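The series measured H1t binding in mouse spermatogenic cells by chromatin immunoprecipitation and sequencing, with an enzymatic kit as the labels' protocols state. The submitters' processing notes name Bowtie 1.1.2 and the build mm10. Peak calling settings, the meaning of the score's scale and the use of the input were not given in the sources used here. Each peak has a position, a name of the form that MACS writes and a score, which is the authors' own value and served only to rank and describe peaks within the deposited list. Depth is unknown, so no interval for read counts was computed; a binomial interval over genes served only to judge the alternatives for the highest GC class. Labels name 1 sample per group, so there is no spread between samples and no p-value.

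Peaks were compared with GENCODE M21 on GRCm38, the assembly called mm10. A start peak has its midpoint within 1 kb of the gene's annotated 5′ end, an exon peak overlaps an exon of a coding transcript by at least 1 bp, and density counts peaks over the gene with flanks of 10 kb. GC content came from transcript sequences, and coding exons from the transcript with the longest coding sequence. The homeobox was found by tryptophan, phenylalanine, any residue, asparagine, any residue and arginine in turn. Members are set beside all coding autosomal genes, as counts and medians. The members, lists and measures were chosen with earlier results of these data known. Any member could be named, but the values of some single genes and some sequences are not reported here; these genes are part of all counts and medians. Those given in full were to be the highest 10 by start score, by density and by covered exon share, members without peaks, and the extremes of each family. The 1 to 4 kb window, the count of genes with at least 50% of exon sequence covered and the mapped members were chosen after their values were seen. On simulated peaks over 20807 genes, 100 of 100 planted start peaks and 100 of 100 planted exon peaks were found. Each was planted where the definition counts it, so this checks the counting only and says nothing about the authors' peak calls. Alternatives covered windows, overlap rules, scores and GC classes. The work used Python 3.11.15, numpy 2.4.6, scipy 1.17.1 and matplotlib 3.10.9.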

Additional observations from a re-analysis of the deposited data

How the results depend on the processing

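No paired analysis was possible because a single library was analysed. Of 28 alternative values, 22 stayed within 1.5 times the main value or, for the share in the highest GC class, within its binomial interval. That interval treats 18 genes of 1 library as independent. It held shares as far apart as 71.4% and 87.5%, so it says little about how stable this share is. The others used fewer peaks, a smaller region or a stricter rule. Fewer peaks could only lower a value or leave it unchanged. A smaller region does not set the direction of a density: over gene bodies alone it rose from 8.34 in members and fell from 2.66 over all genes. With peaks above the median score 18 members had a start peak (28.1%, against 11.0% of all coding autosomal genes), and with peaks above the upper quartile 7 had one (10.9% against 4.16%) and 19 had an exon peak (29.7% against 7.65%). With the start base itself inside a peak, an alternative added after the data were seen, the number was 22. Median density was 18.5 peaks per 100 kb over gene bodies alone, against 0.562 for all genes, and 3.80 with peaks above the median score, against 0. Members lay above all coding genes in each alternative that gave both values. Depth, input, sequence copy number and the GC content of peaks were not measured, and without replicates the spread between animals is not known.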
